A study of Mus musculus with 2 samples.

Results

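Among small nuclear RNA genes, 59 were detected in nucleoplasmic RNA of lipid A-stimulated mouse macrophages. They were chosen by transcript type (snoRNA, scaRNA or snRNA) and by an estimated count of 10 or more in both libraries in the first of 2 quantifications. They comprise 25 of 1507 annotated snoRNA genes, 6 of 51 scaRNA genes and 28 of 1383 snRNA genes, out of 2941 genes of the 3 classes and 55450 annotated genes in all. Of all annotated genes, 13435 reached the same minimum, which is 24.2%. Since the counts were used in the choice, the number detected and the levels are a description.

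The data come from 1 group of 2 biological replicates. Macrophages had been grown from bone marrow of C57BL/6J mice and treated with lipid A, the TLR4-activating part of bacterial lipopolysaccharide, at 100 ng/ml for 90 min. The labels call them biological replicates but give both the same donor, with no sex or age collected, and nothing says that separate animals were used. The library of replicate 1 was made from 1 µg of RNA and that of replicate 2 from 500 ng, and this cannot be told apart from any other difference between them. The fraction is labelled both nucleoplasmic and nuclear, and the RNA had been depleted of rRNA. No untreated, cytoplasmic or whole-cell library was analysed here, so no test between conditions was possible and no p-value is given. In such bulk RNA, fewer cells that make a transcript and less of it per cell cannot be told apart.

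Small nucleolar RNAs (snoRNAs) guide chemical modification of ribosomal RNA, and a few of them help to cut its precursor. Box C/D snoRNAs direct 2′-O-methylation and H/ACA snoRNAs direct pseudouridylation, in each case with a fixed set of core proteins. Small Cajal body RNAs (scaRNAs) are built from the same boxes and guide modification of spliceosomal RNAs. Small nuclear RNAs (snRNAs) form the core of the spliceosome, where U1 pairs with the 5′ splice site and U2 with the branch point. Most vertebrate snoRNAs and scaRNAs are processed out of introns of other genes, while U1, U2 and U3 genes have promoters of their own.

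The sequences shown here are those of the families that carry most of the counts or differ most between the libraries. They were read from the GENCODE M21 transcripts on the mm10 assembly. For U1, Rnu1a1 (chr11:87422867-87423030, + strand) is given with the letters that pair with the 5′ splice site in capitals. Gm22513 (chr12:54696782-54696945, + strand) is given with its single difference, T60C, in capitals, counted from 1 at the 5′ end of Rnu1a1.
Rnu1a1: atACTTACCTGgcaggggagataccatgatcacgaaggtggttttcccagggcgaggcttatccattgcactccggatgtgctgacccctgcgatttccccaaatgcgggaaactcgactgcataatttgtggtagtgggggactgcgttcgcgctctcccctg
Gm22513: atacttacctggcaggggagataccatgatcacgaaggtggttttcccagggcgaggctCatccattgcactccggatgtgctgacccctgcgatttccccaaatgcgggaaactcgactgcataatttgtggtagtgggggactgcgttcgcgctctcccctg

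For U2, Rnu2-10 (chr11:101658238-101658428, + strand) is given with the letters that recognise the branch point in capitals. Gm25939 (chr1:72255008-72255198, + strand) differs by T69C, C78T and G109C, shown in capitals and counted in the same way along Rnu2-10.
Rnu2-10: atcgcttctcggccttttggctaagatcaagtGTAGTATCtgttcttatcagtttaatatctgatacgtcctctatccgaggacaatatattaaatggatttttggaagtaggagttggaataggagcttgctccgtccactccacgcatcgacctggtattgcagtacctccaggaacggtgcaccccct
Gm25939: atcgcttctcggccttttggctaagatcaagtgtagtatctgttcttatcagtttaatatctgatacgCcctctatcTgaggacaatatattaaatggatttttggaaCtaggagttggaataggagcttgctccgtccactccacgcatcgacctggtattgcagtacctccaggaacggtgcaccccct

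Snora73a (chr4:132352775-132352979, − strand) and Snora73b (chr4:132352322-132352526, − strand) both lie inside Rcc1. Gm25776 (chr12:91573430-91573572, − strand) lies in an intron of Gtf2a1. In these 3 snoRNAs the capitals mark the ACA box, 3 bases before the end.
Snora73a: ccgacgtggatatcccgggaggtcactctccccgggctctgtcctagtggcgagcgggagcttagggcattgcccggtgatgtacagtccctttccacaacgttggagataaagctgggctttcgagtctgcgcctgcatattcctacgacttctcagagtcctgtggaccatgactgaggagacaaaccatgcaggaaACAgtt
Snora73b: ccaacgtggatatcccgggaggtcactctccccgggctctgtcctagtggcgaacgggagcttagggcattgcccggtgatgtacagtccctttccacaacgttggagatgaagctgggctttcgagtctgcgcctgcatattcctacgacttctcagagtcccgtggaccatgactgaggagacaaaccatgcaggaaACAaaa
Gm25776: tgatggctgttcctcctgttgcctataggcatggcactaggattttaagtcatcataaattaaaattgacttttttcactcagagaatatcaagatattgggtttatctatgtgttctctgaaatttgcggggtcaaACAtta

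For the scaRNAs, Scarna6 (chr1:87784556-87784820, + strand) and Gm25395 (chr1:87776938-87777209, + strand) lie in introns of Atg16l1. Gm22009 (chr3:69085105-69085447, − strand), in an intron of Kpna4, is 343 bases long, and its bases 1 to 60 and 284 to 343 are shown. Capitals mark the box C letters TGATGA and the box D letters CTGA.
Scarna6: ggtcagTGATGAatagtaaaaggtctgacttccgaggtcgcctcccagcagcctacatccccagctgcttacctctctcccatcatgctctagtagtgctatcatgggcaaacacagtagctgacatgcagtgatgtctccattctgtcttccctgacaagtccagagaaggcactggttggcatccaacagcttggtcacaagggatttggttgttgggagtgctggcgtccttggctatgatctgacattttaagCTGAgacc
Gm25395: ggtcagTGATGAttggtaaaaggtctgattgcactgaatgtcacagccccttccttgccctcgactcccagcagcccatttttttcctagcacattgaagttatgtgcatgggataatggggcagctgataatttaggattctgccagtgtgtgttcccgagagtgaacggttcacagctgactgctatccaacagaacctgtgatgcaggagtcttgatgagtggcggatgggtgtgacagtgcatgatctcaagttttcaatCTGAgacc
Gm22009, bases 1 to 60: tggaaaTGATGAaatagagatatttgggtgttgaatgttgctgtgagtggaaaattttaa
Gm22009, bases 284 to 343: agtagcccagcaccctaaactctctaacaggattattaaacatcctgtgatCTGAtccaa

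The first quantification held 22402808 estimated counts in annotated genes in replicate 1 and 14888406 in replicate 2. The second held 30596271 and 27621074. A count of 0 allows up to 3 counts, or 0.134 CPM (counts scaled to a common library total) in replicate 1 and 0.201 in replicate 2. Features that name no annotated gene took 1.18% and 0.340% of all counts. The macrophage label was met by its markers, with Csf1r at 168 and 260 TPM and Lyz2 at 916 and 1103 TPM. The T cell genes Cd3e and Cd3d and the neutrophil gene Elane had no count in either library. The B cell gene Cd79a had 2 and 1 counts, and the neutrophil genes Mpo and Ngp had 1 and 3.6 counts and 22 and 17 counts. Snord116, a brain-enriched snoRNA family, had 17 annotated genes of 94 bases with no count in either library of either quantification. None of the 458 annotated snoRNA genes of 99 bases or fewer had a count in the first quantification. In the second, 4.80% of them met the minimum. The zeros of Snord116 therefore cannot be read as a sign of cell type.

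Longer genes were detected more often. The shortest detected gene was Snord22 at 126 bases, and the 59 had a median length of 178 bases, against 108 bases over all annotated genes of the classes. Of the annotated genes, 1792 (60.9%) were shorter than 126 bases, and 8 of these had any count in the first quantification, at most 4. Among genes of 140 to 159 bases 8 of 175 were detected (4.57%), among those of 160 to 199 bases 30 of 175 (17.1%), and among those of 200 bases or more 17 of 40 (42.5%). The shorter genes are therefore outside the description that follows. The labels give a fragment size range of 250-400 for both libraries, and its part in this pattern was not tested.

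**Figure D1:**
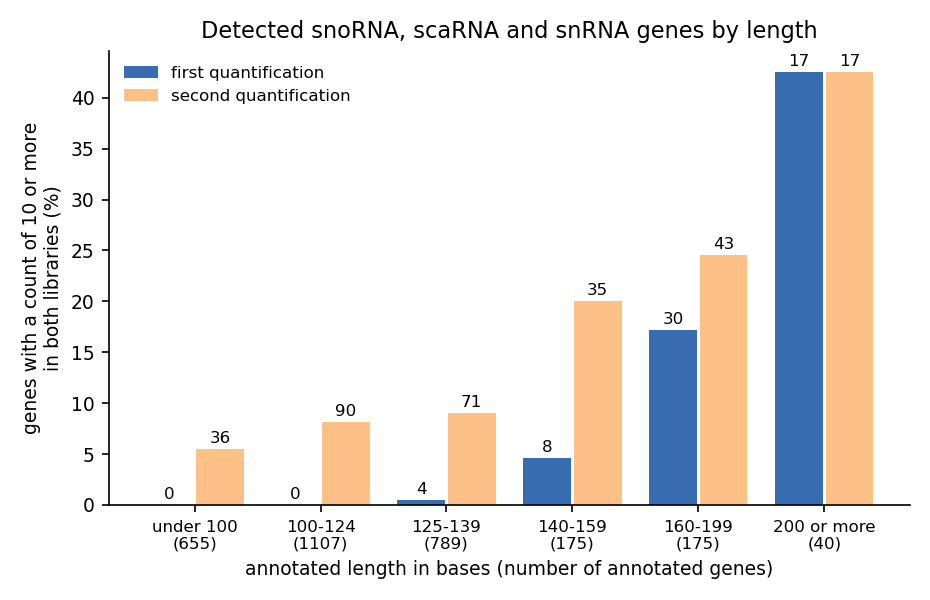
Percent of annotated snoRNA, scaRNA and snRNA genes with an estimated count of 10 or more in both libraries, by annotated length in bases, for the first and the second quantification; numbers above the bars are genes detected and numbers in parentheses are genes annotated. The first quantification detected 0 genes of 124 bases or fewer, and both detected 17 of 40 genes of 200 bases or more.

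The second quantification, made directly from the reads, met the same minimum for 292 genes of the classes, namely 138 snoRNA, 16 scaRNA and 138 snRNA genes. Over all annotated genes it did so for 40.3%. It included 58 of the 59, which is 98.3% of them and 19.9% of its own list. The other 234 had a median length of 120.5 bases, and 188 of them had no count in either library of the first quantification. The snoRNA gene Gm23722, 130 bases long, had 575 and 527 counts in the second quantification and 0 in both libraries of the first. Rnu12, the U12 RNA of the minor spliceosome at 151 bases, had 71 and 8 counts in the first quantification and 687 and 260 in the second. The scaRNA gene Gm22442, 144 bases long, had 14 and 1 counts in the first and 491 and 183 in the second. All 3 are among the genes that met the minimum in the second quantification alone, so more counts there follow largely from that choice. These counts are not scaled, and the second quantification held more counts in all.

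At the minimum itself, the lowest snoRNA gene inside was Gm25791, with 16.7 and 11.8 counts. Rnu3b1 and Rnu3b2 followed, each with 138 and 12.2 counts. Just outside stood Gm22486 with 34 and 9 counts, Gm22422 with 8 and 16 counts and Rnu12.

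The 59 genes held 0.429% of the counts in annotated genes in replicate 1 and 0.394% in replicate 2. Spliceosomal snRNAs were the largest class, at 0.221% (95% Wilson interval 0.219 to 0.223%) in replicate 1 and 0.233% (0.230 to 0.235%) in replicate 2. The scaRNAs held 0.140% (0.138 to 0.142%) and 0.134% (0.132 to 0.136%). The snoRNAs held 0.0675% (0.0664 to 0.0685%) and 0.0274% (0.0266 to 0.0283%). These intervals cover counting error only. The intervals of the 2 libraries did not overlap in any of the 3 classes. How often such narrow intervals separate for other sets of genes was not examined, so this is no trait of these classes. In replicate 1 the snoRNA and scaRNA shares were higher and the snRNA share was lower than in replicate 2.

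Within each class a few genes held most counts. The 10 U2 genes took 37.2% of the counts of the 59 in replicate 1 and 37.6% in replicate 2. The 16 U1 genes took 13.9% and 21.2%. Gm22009 alone held 73.9% and 83.9% of scaRNA counts. Scarna10 alone held 58.5% and 51.3% of snoRNA counts, although its symbol names a Cajal body RNA, which in human guides modification of U5. The snoRNA class sums therefore follow 1 gene closely, and medians over genes are given beside them.

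**Figure D2:**
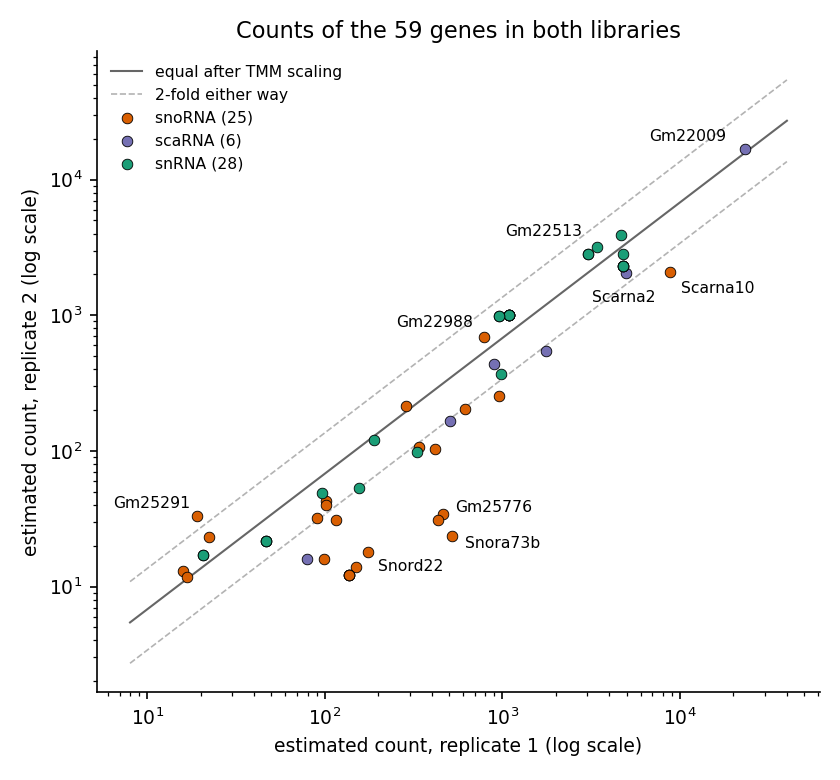
Estimated count of each of the 59 genes in replicate 1 (horizontal, log scale) and replicate 2 (vertical, log scale), by class, with the line of equality after TMM scaling and dashed lines at 2-fold either way. One group of snoRNA genes that includes Snora73b, Gm25776 and Snord22 lies below the lower dashed line, with more counts in replicate 1.

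The U1 and U2 genes were many copies of few sequences. The 59 genes have 42 distinct sequences, and 24 of them fall into 7 groups of identical sequence. Rnu1a1 is identical to Gm22068, Gm22317, Gm22634, Gm23804, Gm25679 and Gm26444. Each of these 7 U1 genes was given 1091 counts in replicate 1 and 1009 in replicate 2, so the value for any copy is an even division of 7640 and 7066 counts. Rnu2-10 is likewise identical to Gm23849, Gm23971 and Gm24950, and each was given 4791 and 2327 counts. The deposited posterior SD was a median of 61.5% and 65.4% of the posterior mean count for the 24 copies, against 0.0234% and 0.00638% for the 35 genes of unique sequence. Which copy was transcribed cannot be read from these values.

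Among U1 genes, some copies that differ by a single base were given distinct counts. Gm22513, 1 base from Rnu1a1, had 3420 and 3204 counts. On the scale of CPM per kb of annotated length it stood at 931 and 1312, against 2079 and 2894 for the 7 copies of the Rnu1a1 sequence together. Gm24305, another neighbour of Rnu1a1 that differs by A26G, had 188 and 120 counts. The pair Gm22614 and Gm25890, which differ from Rnu1b1 by T33C, had 956 and 982 counts each, while Rnu1b1 and Rnu1b2 had 20.7 and 17.1 each.

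Among U2 genes, Gm25939 had 4652 and 3919 counts, with a posterior SD of 0.0234% and 0.00638% of the mean. Gm24497, with the changes G109C and C186A, had 4794 and 2808 counts, but its posterior SD was 29.8% and 35.0%. Gm23444 and Gm23472, which carry G109C alone, had 3035 and 2808 counts each, so that all 3 genes were given the same count in replicate 2 and were not told apart there. Gm25360 differs from Rnu2-10 by C78T, A95G, G109C and C154T and had 987 and 369 counts. Gm22973 differs at 9 positions and had 97 and 49 counts. All 10 U2 genes carry the Sm site letters ATTTTTG and the branch point letters GTAGTATC, and all 16 U1 genes carry ACTTACCTG within the first 20 bases.

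These genes lie in clusters. Gm22513, Gm24305 and 5 other U1 genes lie within 41.8 kb on chromosome 12, and 7 U1 genes lie within 160 kb on chromosome 3. Rnu2-10 and its 3 identical copies lie within 31.1 kb on chromosome 11, and Gm25360, Gm23472, Gm24497 and Gm25939 within 29.0 kb on chromosome 1. A further cluster of 48.7 kb on chromosome 11 holds Rnu1a1, Gm22068 and the U3 genes Rnu3b1 to Rnu3b4, all inside the annotated span of the testis gene Tex14. Tex14 itself stood at 0.08 and 0.15 TPM. The snRNA genes Gm24265, with 332 and 98 counts, and Gm24407, with 155 and 53 counts, are 98.6% identical and lie within 0.936 kb on chromosome 5. Both carry the Sm site letters. The named gene among the 59 nearest to them is Rnu1a1, at 55.4% identity to each. That is below the 80% taken here for a family, so they are not placed with U1 and are given no family name.

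The 6 scaRNAs ranged widely. Gm22009 had 23171 and 16700 counts and stood at 3015 and 3270 CPM per kb. Among the detected snoRNA, scaRNA and snRNA genes, no other single gene was given a higher level per length. The 4 identical copies of Rnu2-10 together, however, stood at 4479 and 3273 CPM per kb. Scarna2, which in human guides methylation of U2, followed with 4935 and 2043 counts, or 532 and 331 CPM per kb. Gm25395 had 1768 and 541 counts, Scarna13, an H/ACA-type RNA, had 900 and 435, Scarna6 had 504 and 166, and Gm26083 had 79.8 and 16.0. Gm22009 differed little between the libraries, and the 5 others were higher in replicate 1 after scaling. Scarna6 and Gm25395, which share a host gene, are 64.4% identical. Box C and box D letters at both ends were found in 3 of the 6 scaRNAs, against 9.80% of the 51 annotated, and the ACA end in 2, against 49.0%.

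Of the box C/D snoRNAs by symbol, Snord17 was highest, with 286 and 215 counts. Snord22, encoded in Snhg1, had 175 and 18.0 counts. Snord15a and Snord15b, both inside the ribosomal protein gene Rps3, had 101 and 40.0 counts and 90.6 and 31.8 counts. U3, the box C/D snoRNA that acts in cleavage of the rRNA precursor, was represented by Rnu3a, with 116 and 31.0 counts, and by Rnu3b1 to Rnu3b4, identical copies with 138 and 12.2 counts each. Snord17 was nearly level between the libraries after scaling, and the others were higher in replicate 1.

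Of the H/ACA snoRNAs by symbol, Snora73a and Snora73b, copies of the U17 RNA that acts in processing of the small-subunit rRNA, had 431 and 30.9 counts and 521 and 23.6 counts. Snora74a had 339 and 107 counts. Snora81 had 22.3 and 23.4 counts. Among snoRNA genes without such a symbol, Gm22988 in Eif4a1 had 783 and 692 counts, Gm23547 in Phb2 had 962 and 253, and Gm23262 in Eif4g2 had 614 and 203. Gm26448, inside the ribosomal protein gene Rpsa, is 88.4% identical to Snora73a and had 149 and 14.0 counts. The ACA end was found in 9 of the 25 snoRNAs (36%), against 18.3% of the 1507 annotated. Both box C and box D letters were found in 5 of 25 (20%), against 20.5%. These are letter matches on the annotated strand, with box C in the first 20 bases and box D in the last 20.

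To compare the replicates, counts were scaled with the TMM method over all annotated genes, and ratios are replicate 1 over replicate 2 with a prior count of 2. Over the 13435 genes at the minimum, the median log2 ratio was -0.0016, with 3.19% of genes 2-fold or more higher in replicate 1 and 2.34% in replicate 2. Of the 59 genes, 20 were 2-fold or more higher in replicate 1 and 1 was 2-fold or more higher in replicate 2. The 20 comprised 16 of 25 snoRNAs, 3 of 6 scaRNAs and 1 of 28 snRNAs. The 16 snoRNAs include Rnu3b1 to Rnu3b4, identical copies that were each given the same count and are not separate observations. The median log2 ratio was 1.36 for snoRNAs (range -1.25 to 3.82), 0.88 for scaRNAs (range -0.09 to 1.66) and -0.25 for snRNAs (range -0.60 to 1.19). The 204 genes under 500 bases outside the 3 classes had a median of -0.12. The snoRNA median was 0.51 over all snoRNA genes with any count, and 0.75 over detected snoRNAs that overlap no same-strand exon of another gene. With 1 member per identical sequence it was 1.19. The direction was the same in these, with a smaller difference.

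**Figure D3:**
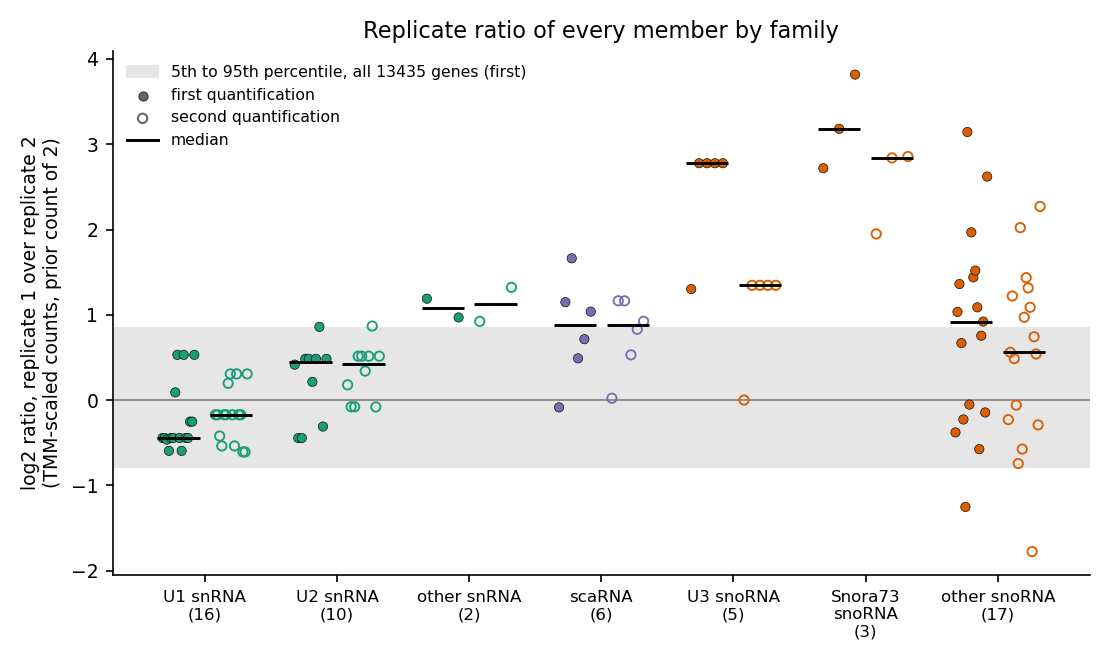
Log2 ratio of replicate 1 over replicate 2 (TMM-scaled counts, prior count of 2) for each gene by family, with filled points for the first quantification, open points for the second and bars for medians. The grey band is the 5th to 95th percentile of all 13435 genes in the first quantification, and all U1 genes lie inside it.

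Within the snRNAs, the U1 and U2 sums lay on opposite sides of equality. The U1 genes summed to 13342 and 12452 counts, which after scaling was 1.37-fold lower in replicate 1. The U2 genes summed to 35763 and 22069 counts, 1.10-fold higher in replicate 1. The copies of Rnu2-10 were at a log2 ratio of 0.48, while Gm25939 was at -0.31 and the identical pair Gm23444 and Gm23472 at -0.45. Gm24497, not told apart from that pair in replicate 2, was at 0.21. In the second quantification the copies of Rnu2-10 were at 0.51 and Gm24497 at 0.34. Gm25939 and the pair were each at -0.08 there, nearer to equality than in the first. Since 20 of the 28 snRNAs are copies of other members, the median of the class moves with how copies are counted, and with 1 gene per sequence it was 0.15. The 2 snRNAs outside both families, Gm24265 and Gm24407, were at 1.19 and 0.97.

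Snora73b, Snora73a and Gm25776 had the largest ratios of the 59 genes. Snora73b was 14.7-fold higher in replicate 1 after scaling (exact binomial interval of counting error 9.80 to 23.2), Snora73a 9.44-fold (6.55 to 14.1), Gm25776 9.21-fold (6.50 to 13.5). Gm26448, the third gene of the Snora73 family, was 7.23-fold higher (4.18 to 13.5) and Snord22 6.60-fold (4.06 to 11.4). These folds and intervals use counts rounded to whole numbers, without the prior count of the log2 ratios, and so are somewhat larger. In the second quantification, Snora73b had 550 and 72.7 counts and Gm25776 had 545 and 130. Their log2 ratios there were 2.86 and 2.02, against 3.82 and 3.14 in the first quantification. Both quantifications thus had these genes higher in replicate 1, with a smaller difference in the second. The other end of the range was Gm25291, a snoRNA gene inside Sec24a, with 19 and 33 counts, at -1.25. Its relative Gm22988, 97.2% identical, was at -0.38.

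For U3 the size of the ratio rested on how reads were divided between overlapping entries. Each of Rnu3b1 to Rnu3b4 is annotated as an entry of 216 bases and another of 215 bases at the same place. In replicate 2 the first quantification gave 12.2 counts to the longer entry and 28.3 to the shorter, and in replicate 1 it gave 138 to the longer and 0 to the shorter. The log2 ratio was 2.78 for the longer entry alone and 1.17 for both together, close to the 1.35 of the second quantification. Rnu3a has the same kind of pair. The first quantification put its 116 and 31.0 counts on the entry of 213 bases, and the second put 312 and 118 counts on the entry of 214 bases. Summed over all 19 annotated genes at 80% identity or more to these U3 RNAs, the ratio was 2.34-fold in the first and 2.55-fold in the second quantification.

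The second quantification was close to the first in the order of the genes. Across the 59 genes, Spearman's rho between mean counts of the quantifications was 0.98, and between replicates within the first it was 0.90. Genes share libraries and, for copies, reads, so these are descriptions. By class, the median log2 ratio of the first over the second, scaled to protein-coding counts, was -0.16 for snoRNAs, 0.24 for scaRNAs and 0.19 for snRNAs, against -0.09 over all 13435 genes. Of the 59, the first was 2-fold or more above the second for 1 gene, Rnu3a, against 0.499% of all genes. It was 2-fold or more below it for 5 genes, Rnu3b1 to Rnu3b4 and Gm24265, against 14.7% of all genes. Gm24265 had 332 and 98 counts in the first and 841 and 434 in the second. The replicate difference also held there, with 16 of 59 genes 2-fold or more higher in replicate 1, against 3.54% of all genes, and 1 gene, Snora81, 2-fold or more higher in replicate 2, against 2.07%.

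**Figure D4:**
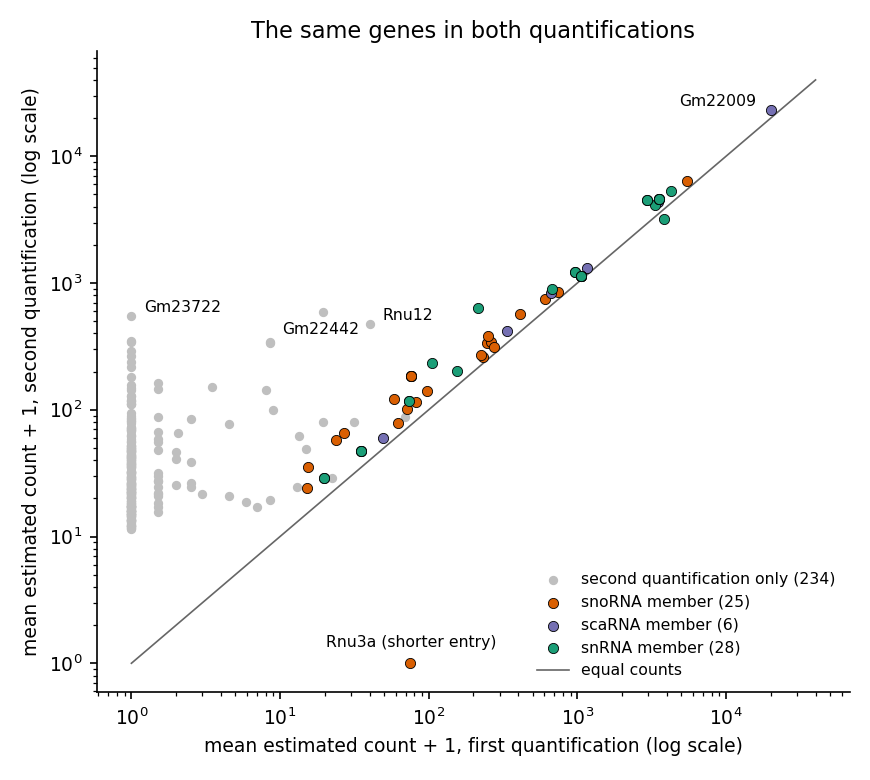
Mean estimated count + 1 over both libraries in the first (horizontal, log scale) and second (vertical, log scale) quantification for the 59 genes, by class, and in grey for the 234 genes that met the minimum in the second alone. Counts are not scaled, and the line marks equal counts. The entry of Rnu3a with 213 bases has 0 in the second quantification.

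Deposited TPM gave another order, because it divides by an effective length that was below 10 bases in both libraries for 29 of the 59 genes. The 59 took 15.5% and 21.8% of all TPM in the first quantification, against 3.24% and 3.98% in the second, and well under 1% of counts in each. Gm22988, 144 bases long with an effective length of 2.77 and 2.84, stood at 8106 and 14098 TPM. Gm22009 stood at 5300 and 7237 TPM, although its CPM per kb were 3015 and 3270, against 243 and 323 for Gm22988. Gm26447 had 419 and 104 counts but was listed at 0 and 5820 TPM, with effective lengths of 0 and 1.03. Snord22 had counts in both libraries and was listed at 0 TPM in both. Elsewhere, levels of the 59 genes are therefore given as counts or as CPM per kb of annotated length. Those of marker genes, Tex14 and the protein partners are deposited TPM, which share a fixed sum with the 59 genes. Such TPM are therefore no comparison between the libraries.

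Hosts were examined because introns of other genes are the usual source of guide RNAs. All 25 scaRNAs and snoRNAs other than U3 with a same-strand host were compared with it, over 21 distinct hosts. The host is the annotated gene that spans the small RNA, or of several the one with the most counts in replicate 1. Whether the small RNA was processed from that gene was not tested. Host ratios were small, with a median log2 ratio of 0.09 and 19 of 21 hosts within 1 of 0, against a median of 1.04 for the 25 RNAs. In 17 of 25 pairs the small RNA had the higher ratio, and in 12 by 1 or more. The hosts outside that range were Ncapd2 and Snhg10. Rcc1, a nucleotide exchange factor for Ran, was at 0.43, against 3.82 and 3.18 for Snora73b and Snora73a inside it. Snora73a also overlaps an exon of the noncoding gene Snhg3, which had 46.2 and 27.5 counts and was at 0.18. Gtf2a1, a general transcription factor gene, was at -0.22, against 3.14 for Gm25776. Ncapd2, a condensin gene, was at 1.39, against 1.52 for Scarna10, which overlaps an annotated exon of it. Snhg10, at 7 and 1 counts, was at 1.28, against 0.49 for Scarna13. Spearman's rho between the ratios of RNA and host was 0.28 across the 25 pairs.

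Pairs inside the same host showed both patterns. Scarna6 and Gm25395 in the autophagy gene Atg16l1 were at 1.04 and 1.15, with the host at -0.01. Snord15b and Snord15a in Rps3 were at 0.92 and 0.75, with the host at 0.14. In Eif4a2, a translation initiation factor gene, Gm26447 was at 1.44 and Snora81 at -0.58, with the host at -0.05. Of the 25 RNAs, 11 overlap an annotated exon of the host, where reads of both cannot be told apart. The 14 that do not, of which Snora73a and Scarna13 overlap an exon of another gene, had a median of 0.90, and 7 of them exceeded the host by 1 or more. Whether strand was used in counting is not given in the sources used here, so reads from opposite-strand genes may also be included.

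**Figure D5:**
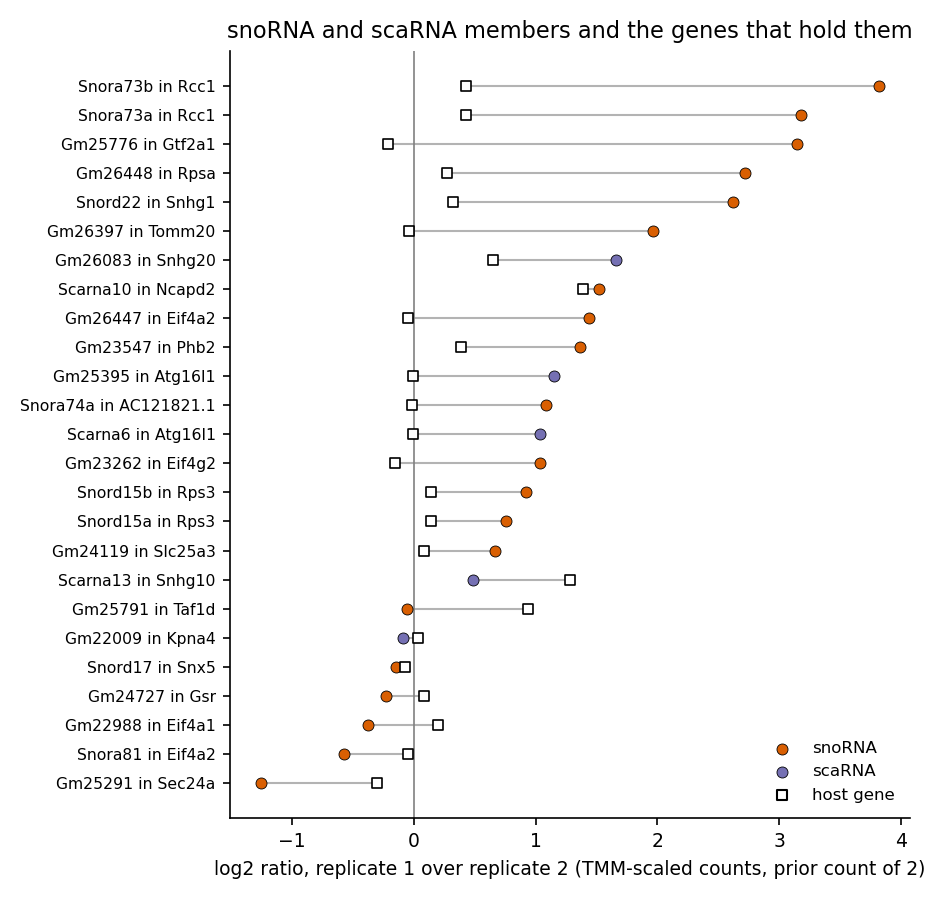
Log2 ratio of replicate 1 over replicate 2 (TMM-scaled counts, prior count of 2) for the 25 snoRNAs and scaRNAs other than U3 that lie inside a same-strand gene (filled circles) and for that gene (open squares), ordered by the small RNA. The small RNA lies right of its host in 17 of 25 pairs.

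The genes of the protein partners had median log2 ratios near 0. The 4 core proteins of box C/D particles were all at the minimum, led by Nop56 (13.9 and 20.3 TPM) and Nop58 (10.5 and 13.5 TPM), and their median log2 ratio was 0.10. The 4 H/ACA core proteins had a median of 0.15, with Gar1 at 5.43 ± 2.61 TPM and Dkc1, the pseudouridine synthase, at 3.67 ± 0.948 TPM (SD, n = 2). Of these 8, only Nop10, at 43 and 12 counts, was 2-fold or more higher in replicate 1. Among 14 proteins of snoRNP assembly and Cajal bodies, the cap methylase Tgs1 led with 19.8 ± 1.77 TPM, before Smn1 with 5.38 ± 1.21 TPM (SD, n = 2). Their median log2 ratio was -0.01, and 1 of 14, Znhit3, was 2-fold or more higher in replicate 1. The 15 Sm and snRNP-specific proteins had a median of 0.03, with Snrnp70, a U1 protein, at 89.3 and 117 TPM and Snrpb2, a U2 protein, at 8.80 and 14.2 TPM. The 12 genes of snRNA transcription and the La protein had a median of -0.10, led by the La gene Ssb (18.2 and 27.2 TPM) and by Snapc3 (17.4 and 24.5 TPM). None of these 27 was 2-fold different either way, against 3.19% and 2.34% of all genes.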

How the data were processed

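Each library had a gene table and transcript tables. The authors derived the first quantification from reads aligned to the mm10 transcriptome (GENCODE M21), and the second from 10 read files per library without that alignment, per the file headers and notes. For both, the program is not given in the sources used here. As deposited, the estimated counts (expected counts) need not be whole and are not normalized. The deposited TPM are counts over effective length, scaled to a fixed sum per library. The deposited posterior mean, SD and TPM bounds (unit signal) were used for precision. Lengths are in the authors' other columns.

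The second quantification was summed per gene. Counts were rounded for scaling factors with edgeR 4.0.16 (TMM) and DESeq2 1.42.0 in R 4.3.3, tested on simulated data, and kept as deposited otherwise. Hosts, sequences and identities (edlib 1.3.9.post1) came from GENCODE M21, using Python 3.11.15 with scipy 1.17.1, pandas 2.3.3, numpy 2.4.6 and, for plots, matplotlib 3.10.9. Ratios of the quantifications were averaged over both libraries. Intervals are at 95%.

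Named genes were the 4 highest of each class, all scaRNAs, snRNAs with a family symbol, the extreme replicate and quantification ratios at a mean count of 100 or more, Snora73a, Snora73b and Gm25776 from earlier results, genes in the 3 richest hosts, neighbours of the minimum, and the 2 highest proteins of each list. Other genes were named after their values were seen. Of the cell type markers, 1 is not reported here. The genes and lists were chosen with earlier results of these data known. Alternatives were other scalings, priors, minimums, quantifications, and members with overlaps or copies left out.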

Additional observations from a re-analysis of the deposited data

How the results depend on the processing

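Of 82 recomputed values, 63 kept their sign and moved by less than 1 SD between the libraries, or for numbers of genes by less than 1.5 times, and 5 changed sign. For the replicate ratios that SD grows with the ratio itself, and was 0.962 for the snoRNA median of 1.36. A fall to 0.51 was therefore still counted among the 63, which are no measure of stability for these ratios. The second quantification met the minimum for 138 snoRNA, 16 scaRNA and 138 snRNA genes, 292 in all. A minimum of 20 left 15 snoRNAs, and a minimum of 50 left 7 snoRNAs and 34 genes in all. Using 1 library alone gave 31 to 34 snoRNAs, 6 to 8 scaRNAs, 30 snRNAs and 67 to 72 genes in all.

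The snoRNA median log2 ratio of the replicates stayed above 0 under the 11 alternatives run, from 0.51 with no minimum to 1.36 with a prior count of 0.5. The TPM alternative for that ratio left out Gm26447 and Snord22, which are listed at 0 TPM. Summing overlapping entries (1.17) and leaving out U3 (1.06) were chosen after seeing the data. The snRNA median was -0.44 at a minimum of 50, and turned to 0.15 with no minimum and to 0.15 with 1 member per identical sequence.

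The ratio of the quantifications was least stable. For snoRNAs it turned to 1.33 by TPM (pseudocount 0.1, with the genes listed at 0 TPM kept in), to 0.17 at a minimum of 50, and ranged from -0.34 to 0.16 with 1 library left out. For scaRNAs it was 0.76 by TPM and 0.22 to 0.34 with 1 library left out. For snRNAs it was 2.35 by TPM, 0.31 at a minimum of 50 and 0.14 to 0.27 with 1 library left out. The second quantification gave shares of counts of 0.103% for scaRNAs and 0.181% for snRNAs. With 1 library left out, shares ranged from 0.0274% to 0.0675% for snoRNAs, 0.134% to 0.140% for scaRNAs and 0.221% to 0.233% for snRNAs. No paired analysis was possible because there is 1 group. The cause of these shifts was not tested. Data from 2 libraries give no error for a single ratio beyond counting, and genes under 126 bases are not described.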
